A study of Mus musculus with 4 samples.

Results

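Interstitial nuclei of the mouse kidney, labelled as fibroblasts and pericytes, made up 155 of 27343 nuclei (0.567%). They were chosen by their counts: a UMI, which marks 1 RNA molecule, in at least 2 of 6 marker genes (Pdgfrb, Pdgfra, Col1a1, Col1a2, Col3a1 and Dcn), with at most 1 UMI of the endothelial gene Flt1 and at most 2 each of the proximal tubule gene Lrp2 and the thick limb gene Slc12a1. Single-nucleus RNA-seq had been done on kidneys of 4 male mice aged 12 weeks, all homozygous for a floxed Tfap2a allele. The 2 knockout mice carried Hoxb7Cre, which acts in the collecting duct and lower urinary tract epithelia, and the 2 control mice were Cre-negative littermates. Each mouse gave 1 library, from RNAlater-stored tissue in which trimming of the cortex favoured medullary nuclei. The comparison asks how nuclei outside the targeted epithelium differ between the genotypes.

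Sequencing gave 42138345 UMIs for control mouse 1, 24998797 for control mouse 2, 44964099 for knockout mouse 1 and 22179410 for knockout mouse 2. Nuclei kept numbered 7738, 5430, 7998 and 6177 in this order of mice, which is used for all lists of 4 values. The interstitial nuclei numbered 57, 46, 30 and 22, and their summed UMIs were 104943, 100630, 55418 and 47511. Sums in the knockout mice were therefore shallower. The median depth of an interstitial nucleus was 1839 UMIs, against 2635 in all other nuclei, 1506 in endothelial nuclei (at least 2 Flt1 UMIs) and 3592 in proximal tubule nuclei (at least 5 Lrp2 UMIs). Mitochondrial UMIs had a median of 2.21%, 0.728%, 1.49% and 0.538% in the interstitial nuclei, higher in the mice numbered 1 of each genotype. Of the barcodes, 75 occurred in more than 1 library, and 0 of them belonged to interstitial nuclei. Tfap2a itself had 1, 1, 0 and 0 UMIs in these nuclei. Counts per gene do not show whether its 3′ tags lie in the deleted exons, so they check nothing about the genotype.

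Interstitial cells fill the space between tubules and vessels. Fibroblasts make and remodel the matrix, pericytes wrap capillaries and depend on PDGF receptor beta, and the lipid-laden interstitial cells of the medulla make prostaglandins and hyaluronan. Type I and III collagens and the small proteoglycan decorin are typical fibroblast products, and PDGF receptor alpha marks fibroblasts rather than pericytes in many tissues.

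The genes used to choose the nuclei were spread unevenly over them. Pdgfrb, the PDGF receptor of pericytes and fibroblasts, had a UMI in 118 nuclei (76.1%), and Pdgfra in 107 (69.0%). The fibrillar collagen genes Col1a2, Col3a1 and Col1a1 had one in 95 (61.3%), 77 (49.7%) and 34 (21.9%) nuclei, and Dcn, which encodes decorin, in 61 (39.4%). In proximal tubule nuclei, which should lack them and were deeper, the shares ran from 0.0522% for Col1a1 to 0.240% for Dcn. Of the 155 nuclei, 53 had a UMI in 2 of the markers, 52 in 3, 26 in 4, 18 in 5 and 6 in all 6. Just inside the limit, the 53 nuclei with 2 markers had a median of 3 marker UMIs at a depth of 1741 UMIs, and just outside it the 201 nuclei with 1 marker had a median of 1 marker UMI at 2190 UMIs. A further 38 nuclei with at least 2 markers were left out for their Flt1 (12 nuclei), Lrp2 (18) or Slc12a1 (13) UMIs, some for more than 1 of them. These values chose the nuclei and were not tested.

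The fibroblast part of the label cannot be checked with the genes of the rule, since the nuclei were chosen on them. Of fibroblast genes outside the rule, Lum and Dpt had a UMI in 3 nuclei each (1.94%), Pi16 in 2 (1.29%), Cd34 in 4 (2.58%) and Fap in 0. Fbln1, of the same list, had a UMI in 4 of 66, 8 of 54 and 1 of 35 nuclei of the subclusters described below. Cdh11, also on the medullary interstitial list, was found in 68 (43.9%, against 3.97% of proximal tubule nuclei). As a description, Pdgfra and Pdgfrb were detected together in 81 nuclei (52.3%), Pdgfra alone in 26 (16.8%) and Pdgfrb alone in 37 (23.9%). The pericyte part was compared with pericyte genes outside the rule. Rgs5, a regulator of G protein signalling typical of pericytes, had a UMI in 9 nuclei (5.81%, against 0.0835% of proximal tubule nuclei), the proteoglycan gene Cspg4 in 2 (1.29%, against 3.45%) and the adhesion gene Mcam in 6 (3.87%, against 0.0835%). At least 2 of Rgs5, Cspg4, Mcam, Kcnj8 and Abcc9, markers picked from the pericyte list after their values were seen, were found in 9 nuclei (5.81%), and at least 1 in 35 (22.6%). The potassium channel subunit genes Kcnj8 and Abcc9 were found in 16 nuclei (10.3%, against 0.689%) and 13 (8.39%, against 5.39%), and Ndufa4l2, a mitochondrial protein of mural cells, in 19 (12.3%, against 0.115%). Other genes of the same list were found in more nuclei: Gucy1a1 in 83 (53.5%, against 1.23%), Gucy1b1 in 47 (30.3%, against 0.230%), Angpt1 in 88 (56.8%, against 21.0%) and Ebf1 in 115 (74.2%, against 0.679%, and 73.2% of endothelial nuclei). Notch3, the Notch receptor of mural cells, was found in 35 (22.6%, against 4.69%). The smooth muscle genes Myh11 and Acta2 had a UMI in 5 and 16 nuclei, and Cnn1 and Myocd in 0 of 155, which allows a share of up to 1.94% of nuclei with a UMI. Other genes of the smooth muscle list were found in more nuclei. Cald1 was found in 126 (81.3%, against 1.21%, and 48.1% of endothelial nuclei) and Mylk in 114 (73.5%, against 50.9%). Tagln was found in 50 (32.3%, against 0.470%), Smtn in 28 (18.1%, against 10.8%), Des in 19 (12.3%, against 0.0313%) and Lmod1 in 7. Genes of the fibroblast, pericyte and smooth muscle lists thus went both ways. Fibroblasts and pericytes were not separated, and the class is called interstitial nuclei here.

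Genes outside the rule described the class further, as levels in CPM (UMIs of a gene per 1e6 UMIs) without a test, since the nuclei had been chosen on their expression. Mgp, an inhibitor of calcification, stood at 2502 CPM against 6.27 CPM in all other nuclei, and Fbln5, a protein of elastic fibres, at 2094 against 7.07 CPM. Both were also low in endothelial nuclei, at 46.1 and 49.8 CPM. The cGMP-dependent kinase gene Prkg1 (3420 CPM) and the IGF-binding protein gene Igfbp3 (2107 CPM) were high as well, but endothelial nuclei had 1011 and 657 CPM of them. Lama2, a laminin chain of mesenchymal basement membrane, stood at 1339 CPM in 120 nuclei and at 5.20 CPM in other nuclei. Ctgf, a matricellular protein and a target of TGF-beta and YAP, stood at 1378 against 9.80 CPM.

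Matrix genes outside the rule were detected too, and are set beside their shares in the deeper proximal tubule nuclei (3592 against 1839 UMIs). The basement membrane collagen genes Col4a1 and Col4a2 had a UMI in 124 nuclei (80.0%, against 27.5%) and 113 (72.9%, against 24.2%), and endothelial nuclei had them in 47.8% and 34.0%. Col14a1, a collagen that binds fibrils, was found in 86 (55.5%, against 0.720%). The proteoglycan gene Bgn was found in 114 nuclei (73.5%, against 0.741%), the fibronectin gene Fn1 in 79 (51.0%, against 1.28%) and the basement membrane gene Nid1 in 88 (56.8%, against 0.230%). Adamts5, which cleaves proteoglycans, was found in 88 nuclei (56.8%, against 0.188%), whereas Fap, a protease of activated fibroblasts, was found in 0. Genes of the myofibroblast activation list went both ways: Ctgf was found in 102 nuclei (65.8%, against 0.616%), whereas Postn had a UMI in 1 nucleus, and Lrrc15 and Cthrc1 in 0.

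Regulators and receptors were recorded in the same way. Of the stromal transcription factors, Zeb2 was found in 140 nuclei (90.3%, against 66.9% of proximal tubule nuclei), Nr2f2 in 129 (83.2%, against 36.3%) and Tcf21, a factor of renal stroma, in 59 (38.1%, against 0.157%). Tshz2 was found in 131 (84.5%, against 1.504%) and Meis2 in 123 (79.4%, against 3.11%), but endothelial nuclei had these in 54.7% and 98.0%. Foxd1, which marks stromal progenitors in the embryo, was found in 1, and Tbx18 and Foxf1 in 0. The angiotensin receptor gene Agtr1a was found in 65 nuclei (41.9%, against 17.7%) and the guanylate cyclase subunit genes Gucy1a1 and Gucy1b1, which form the receptor for nitric oxide, in 83 and 47, as above. Of the PDGF ligands, Pdgfd was found in 24 nuclei (15.5%, against 8.67%), Pdgfa in 15 (9.68%, against 5.62%), Pdgfb in 1 and Pdgfc in 0. Epo, the erythropoietin gene made by interstitial cells in hypoxia, was found in 31 nuclei (20%), and in 33.7% of proximal tubule nuclei, at 117 against 112 CPM, beside 72.7 CPM in barcodes with under 100 UMIs.

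RNA of other cell types was present in every interstitial nucleus. The abundant proximal tubule gene Kap had a UMI in all 155, and in 99.8% of endothelial nuclei. Summed over the 11 proximal tubule markers, the level was 23899, 14668, 35549 and 6272 CPM, so the mice numbered 1 lay above those numbered 2 in both genotypes. Flt1 had 2 UMIs in all, as the rule allows, and the endothelial list summed to 457, 815, 415 and 316 CPM with Emcn as its most abundant gene (115 UMIs) and Egfl7 at 0. The part of such RNA in the results below was not tested.

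Clustering of the 155 nuclei gave 3 subclusters, of 66, 54 and 35 nuclei. The settings were chosen after several combinations had been viewed, and over 24 combinations the number of groups ran from 2 to 7. For subcluster 3, the best-matching group shared a median of 80.0% of nuclei with it (51.3% to 100%, as a share of the nuclei in either), whereas for subclusters 1 and 2 the medians were 49.7% and 41.1%, with lowest values of 30% and 20.3%. Subclusters 1 and 2 therefore depended strongly on the settings. Clusters were built from the same counts, so their leading genes are descriptions and had no test.

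Subcluster 3 was led by Cck, the cholecystokinin gene, at 2118 CPM against 29.6 CPM in the other interstitial nuclei, by Ranbp3l (1909 against 21.1 CPM) and by the small heat shock protein gene Cryab (6145 against 296 CPM). Of the medullary interstitial markers, the BMP receptor gene Bmpr1b had 40 of its 46 UMIs there, the tenascin gene Tnc 25 of 25 and the cyclooxygenase gene Ptgs1 11 of 16. Others of this list lay the other way: Cdh11, its most abundant gene, stood at 307 against 460 CPM, the endothelin receptor gene Ednra at 13.9 against 92.9 CPM and Lpar1 at 111 against 165 CPM, and Ednrb and Avpr1a had 0 UMIs there. Mgp, Fbln5 and Ctgf were low there, at 320, 474 and 181 CPM against 3164, 2585 and 1740 CPM in the other interstitial nuclei, while Pdgfra was found in 26 of the 35 nuclei. Agtr1a, also of the medullary interstitial list, stood lower in subcluster 3, at 69.7 against 389 CPM. Aqp2, the water channel of the collecting duct, was also among its 10 leading genes, with 67 UMIs in 8 nuclei, and 41 of the 78 Aqp2 UMIs of all interstitial nuclei lay in 1 nucleus. The endothelial marker Emcn had 86 of its 115 UMIs in subcluster 3, in 20 of the 35 nuclei (1198 against 122 CPM). The subcluster was given no cell type name.

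Subcluster 1 was led by Acy3 and Cd74 and by genes of the proximal tubule such as Kap, at 29080 against 11045 CPM, and had the highest median of mitochondrial UMIs (1.98%, against 0.959% and 0.945% in subclusters 2 and 3). It took 28, 8, 25 and 5 nuclei from the mice, more from those numbered 1. Subcluster 2 was led by Magi2 and Podxl, genes of podocytes, and held Dcn at 1571 against 325 CPM and Mgp at 4380 against 1488 CPM. The leads of Magi2, Podxl and Dcn rested on few nuclei. Subcluster 2 held the 3 nuclei with at least 2 podocyte markers, without which Podxl had 3, 3, 1 and 0 UMIs in all interstitial nuclei. Of its 170 Dcn UMIs, 92 lay in 1 nucleus. Mgp was spread more widely, with 474 UMIs in 38 of the 54 nuclei, 114 of them in that nucleus. Subcluster 2 took 17, 21, 3 and 13 nuclei, and subcluster 3 took 12, 17, 2 and 4.

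**Figure D1:**
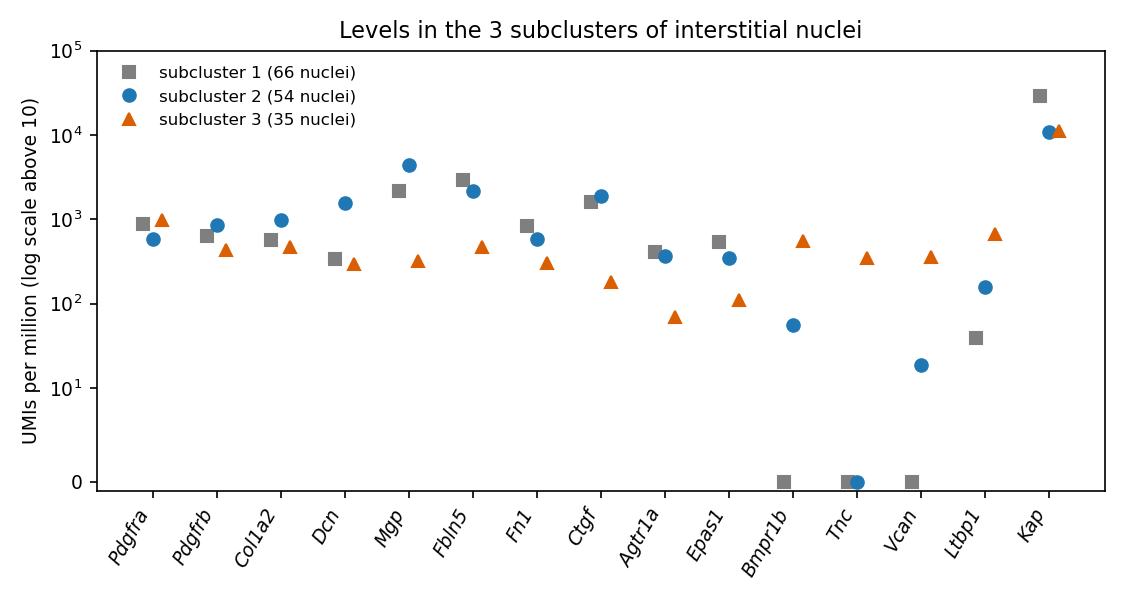
Levels of 15 genes in the 3 subclusters of interstitial nuclei, in CPM on an axis that is logarithmic above 10 and linear below it; each point is the sum over the nuclei of 1 subcluster. Mgp, Fbln5 and Ctgf stood lowest in subcluster 3, at 320, 474 and 181 CPM, and Tnc had UMIs only there.

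Interstitial nuclei were a smaller share of the kept nuclei in the knockout mice. The share was 0.737% (95% exact binomial interval 0.558% to 0.953%) in control mouse 1, 0.847% (0.621% to 1.13%) in control mouse 2, 0.375% (0.253% to 0.535%) in knockout mouse 1 and 0.356% (0.223% to 0.539%) in knockout mouse 2. Each knockout mouse was lower than either control mouse, and the intervals, which cover counting error only, did not overlap between the genotypes. The means were 0.792% ± 0.0782 (SD, n = 2) and 0.366% ± 0.0134 (SD, n = 2), a share 2.17-fold lower in the knockout mice. The exact two-sided permutation test gave p = 0.333, the smallest p that this test can give with 2 mice against 2. With mitochondrial UMIs limited to under 1% the shares were 0.232%, 0.848%, 0.109% and 0.291%, and the genotypes overlapped, but these rest on 2, 35, 4 and 16 interstitial nuclei, with an interval of 0.0281% to 0.835% in control mouse 1.

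Other classes of nuclei differed between the mice as well, and were set beside this share after it had been seen. Endothelial nuclei made up 4.60%, 4.57%, 4.34% and 3.58%, so that there were 16, 18.5, 8.65 and 9.95 interstitial nuclei per 100 endothelial nuclei, again lower in both knockout mice. Nuclei with at least 2 UMIs of Slc14a2, a urea transporter of the inner medulla, made up 1.95%, 3.06%, 1.10% and 1.13%. Per 100 of these, interstitial nuclei numbered 37.7, 27.7, 34.1 and 31.4, and the genotypes overlapped. They also overlapped per 100 nuclei with at least 3 Aqp2 UMIs (16.8, 8.95, 9.15 and 11.1), and not per 100 thick limb nuclei with over 2 Slc12a1 UMIs (3.73, 2.89, 2.38 and 1.48). Proximal tubule nuclei (over 2 Lrp2 UMIs) made up 47.8%, 35.8%, 49.4% and 49.5%, lowest in control mouse 2. A change in the interstitium and a difference in how much inner medulla each slice held cannot be told apart in these data.

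**Figure D2:**
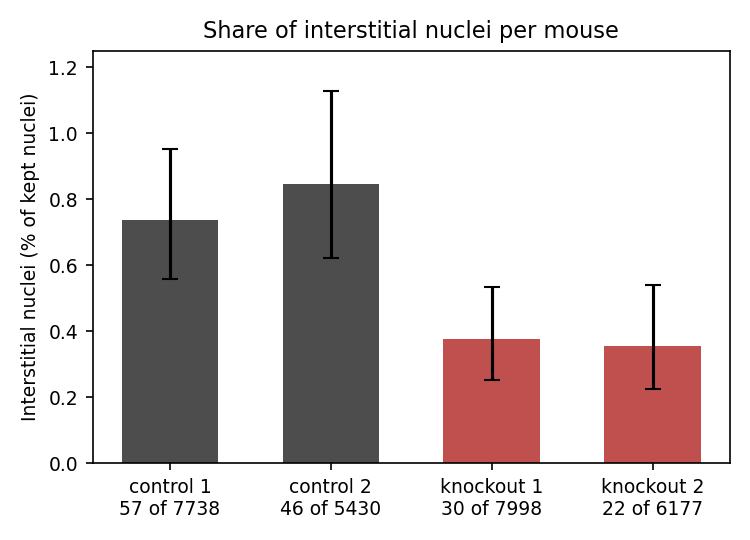
Share of interstitial nuclei among all kept nuclei of each mouse, in percent; bars give the share, error bars the 95% exact binomial interval, and the numbers under the bars the nuclei. The knockout mice (0.375% and 0.356%) were lower than the control mice (0.737% and 0.847%).

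Expression within the interstitial nuclei was compared between the genotypes over sums per mouse. Of 6493 genes with at least 10 UMIs, edgeR's quasi-likelihood test called 1 lower in the knockout mice (0.0154% of genes) and 0 higher (0.0%) at an adjusted p under 0.05. At an unadjusted p under 0.05 it found 167 lower (2.57%) and 107 higher (1.65%), and DESeq2 called 1 lower and 0 higher. The gene called by edgeR was Podxl, and that called by DESeq2 was Magi2. Genes whose mice did not overlap between the genotypes numbered 1093 lower (16.8%) and 1018 higher (15.7%), and the median log2 fold change of all genes tested was -0.05. Counts of calls were unstable: without control mouse 1 they were 6 lower and 7 higher, without control mouse 2 they were 5 and 5, without knockout mouse 1 they were 8 and 18, and without knockout mouse 2 they were 13 and 9.

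Podxl, which encodes podocalyxin of podocytes and endothelium and lies on chromosome 6 from 31519493 to 31563937 (GRCm38.p6, RefSeq; gene ENSMUSG00000025608), had 50, 23, 1 and 0 UMIs. Its log2 fold change was -5.01 ± 0.91 (SE), a 32.3-fold lower level (edgeR adjusted p = 0.0479), and neither knockout mouse reached a control mouse. The whole podocyte list lay the same way: all 5 of its genes had an unadjusted p under 0.05 and did not overlap between the genotypes, and it summed to 4564, 2494, 632 and 358 CPM. Magi2, a scaffold protein of the slit diaphragm, was its most abundant gene with 372, 192, 34 and 17 UMIs. The phosphatase gene Ptpro had 19, 16, 0 and 0 UMIs, at least 5.84-fold lower against a floor of 3 counts. No marker of the list was at 0 in the control mice.

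These UMIs lay in few nuclei. A UMI in at least 2 podocyte markers, Podxl and Ptpro among them, was found in 3 interstitial nuclei, 2 of control mouse 1 and 1 of control mouse 2. Without them Podxl had 3, 3, 1 and 0 UMIs and Magi2 had 27, 17, 34 and 17, edgeR called 0 genes lower and 0 higher (138 and 101 at an unadjusted p under 0.05), and the fitted log2 fold change of Magi2 was 1.08. DESeq2 was not run without them. In endothelial nuclei Podxl stood at 594, 429, 533 and 677 CPM, and there the genotypes overlapped.

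A single nucleus also carried most of the highest values in knockout mouse 2. It held 219 of the 350 UMIs of the 6 rule markers in that mouse, whereas the next highest nucleus of any mouse held 32. Dcn had 58, 40, 23 and 114 UMIs in the mice, of which this nucleus held 92, and Col1a1 had 19, 15, 8 and 36, of which it held 30. Genes of adventitial fibroblasts followed it: Lum had 0, 1, 1 and 27 UMIs, Pi16 had 0, 2, 0 and 22, and Clec3b had 0, 1, 0 and 25, and all of the UMIs in knockout mouse 2 lay in 1 nucleus for each. None of these passed (edgeR adjusted p = 0.105 for Lum, 0.394 for Pi16 and 0.212 for Clec3b). All of them passed with the replicate number of the mice as a block, without the filter on UMIs, and with at least 3 markers. Without this nucleus, the fitted log2 fold changes of Dcn, Col1a1, Col1a2 and Col3a1 were -0.089, -0.26, -0.088 and -0.40, against 1.49, 1.35, 0.78 and 0.68 with it. The calls of edgeR then numbered 8 lower and 3 higher.

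Subcluster 3 took 21.1%, 37.0%, 6.67% and 18.2% of the interstitial nuclei of the mice, so its leading genes were picked where control nuclei were more numerous. Of the 5 leading genes, 3 had low sums in both knockout mice, without passing. Levels within the subcluster were not compared between the mice. Ranbp3l (chromosome 15 from 8967949 to 9067335) had 46, 85, 3 and 8 UMIs in 28 nuclei, a log2 fold change of -2.61 ± 0.56 (SE; edgeR adjusted p = 0.0962). Cck, on chromosome 9 from 121489824 to 121495694, had 39, 101, 4 and 15 UMIs in 29 nuclei, a log2 fold change of -1.93 (edgeR adjusted p = 0.536). Cryab had 259, 191, 51 and 10 UMIs, a log2 fold change of -1.97 (edgeR adjusted p = 0.358). For each of these the higher knockout mouse was under the lower control mouse, as it was for 16.8% of all genes tested. The other 2 overlapped between the genotypes, Kcnd2 at 172, 328, 0 and 358 CPM and Lrriq1 at 200, 368, 54.1 and 316 CPM, as did Adamtsl1 at 1115, 1043, 162 and 1200 CPM. In the nuclei of all other classes Ranbp3l stood at 448, 507, 203 and 204 CPM, Cryab at 1913, 1494, 1096 and 837 CPM and Cck at 3.91, 6.30, 2.73 and 3.49 CPM, each lower in both knockout mice as well. With subcluster 3 left out, Cck had 2, 5, 0 and 0 UMIs and Ranbp3l 1, 1, 2 and 1, so nearly all of their UMIs lay in that group.

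Further genes had low values in both knockout mice. Col4a3, a chain of basement membrane collagen, had 31, 63, 4 and 2 UMIs in 39 nuclei (log2 fold change -3.01, edgeR adjusted p = 0.0649). The stress response gene Nupr1 had 51, 82, 9 and 8 UMIs (-2.02 on the log2 scale, edgeR adjusted p = 0.212), and the neuropeptide Y receptor gene Npy1r had 26, 21, 2 and 2 (-2.56 on the log2 scale, edgeR adjusted p = 0.251). None passed in this comparison, and no value of the knockout mice reached the lower control mouse. Without the filter on UMIs Col4a3 and Nupr1 passed. Without the nucleus with 219 marker UMIs they passed too (edgeR adjusted p = 0.0129 and 0.0246), as did Ranbp3l (0.0216), and without the nuclei with podocyte markers they did not (0.563, 0.594 and 0.454), although their log2 fold changes there were -2.74, -1.77 and -2.67. Npy1r stood at 165 CPM in interstitial nuclei and at 0.897 CPM in all others. Col4a3 lay the other way, at 324 CPM in interstitial nuclei and 921 CPM in all others, beside 374 CPM in barcodes with under 100 UMIs. Its level here was thus no higher than in those barcodes. Nupr1 stood at 486 against 147 CPM in all others, beside 180 CPM in such barcodes. The IGF-binding protein gene Igfbp5 had 237, 242, 67 and 43 UMIs (-1.19 on the log2 scale, edgeR adjusted p = 0.848), but with subcluster 3 left out it stood at 1279, 366, 1038 and 252 CPM, where the genotypes overlapped. Without subcluster 3, Npy1r had 7, 2, 1 and 0 UMIs, Nupr1 16, 18, 2 and 6, and Col4a3 21, 12, 2 and 1. Many of their UMIs thus lay in that group, and with it left out these 3 genes did not overlap between the genotypes in CPM. Those sums still hold the 3 nuclei with podocyte markers, all of control mice. With only these nuclei left out, Nupr1 had 42, 65, 9 and 8 UMIs. No sum was made without both, so the part of these nuclei in the separation of Nupr1 was not tested. Ltbp1, which tethers latent TGF-beta to the matrix, had 21, 42, 0 and 7 (-2.19 on the log2 scale, edgeR adjusted p = 0.642). The collecting duct markers lay the same way, at 286, 765, 72.2 and 168 CPM over 6 genes, with Aqp2 as the most abundant and Scnn1g at 0, and their part in these values was not tested.

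Matrix and signalling genes with the highest values in the knockout mice did not pass either. Ctgf, on chromosome 10 from 24595442 to 24598683, stood at 1029, 775, 1913 and 2799 CPM, a log2 fold change of 1.33 ± 0.44 (SE; edgeR adjusted p = 0.668). Mgp, on chromosome 6 from 136872435 to 136875823, stood at 1963, 1699, 3880 and 3789 CPM, a log2 fold change of 1.01 ± 0.46 (SE; edgeR adjusted p = 0.990). In both genes both knockout mice lay above both control mice. For Mgp, 114 of the 180 UMIs of knockout mouse 2 lay in the nucleus described above, and 100 of the 215 of knockout mouse 1 lay in 1 nucleus. Without the nucleus described above Mgp stood at 1963, 1699, 3880 and 1563 CPM, so that the genotypes overlapped, and Ctgf at 1029, 775, 1913 and 2392 CPM, where they did not. Fn1 stood at 476, 507, 902 and 884 CPM (0.80 on the log2 scale), and Gucy1b1 at 210, 149, 325 and 442 CPM (1.03 on the log2 scale), both with an edgeR adjusted p of 0.990. Gucy1a1, the partner of Gucy1b1, lay the other way, at 429, 686, 415 and 421 CPM (-0.47 on the log2 scale, edgeR adjusted p = 0.990). The next sums concern the nucleus with 219 marker UMIs again. With subcluster 3 left out but that nucleus kept, Ctgf stood at 1255, 1192, 2018 and 3250 CPM and Mgp at 2461, 2511, 4132 and 4383 CPM. The genotypes did not overlap there, but for Mgp that nucleus held 114 of the 174 UMIs left in knockout mouse 2. No sum was made without both.

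**Figure D3:**
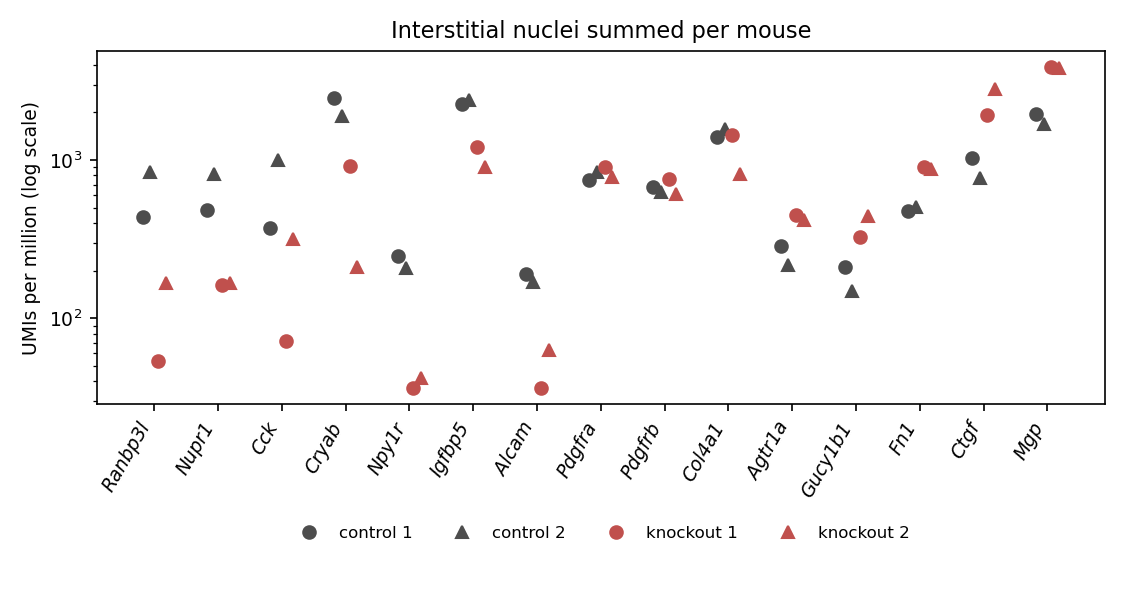
Levels of 15 genes in the interstitial nuclei of each mouse, in CPM on a logarithmic axis; each point is the sum over the interstitial nuclei of 1 mouse, grey for control and red for knockout. Ctgf stood at 1029 and 775 CPM in the control mice and at 1913 and 2799 CPM in the knockout mice, and none of the genes shown passed the test.

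The receptors that define the class are given as a description, since nuclei entered the class by their UMIs of these and other markers. Pdgfra, on chromosome 5 from 75151322 to 75198206, stood at 743, 835, 902 and 779 CPM, a log2 fold change of 0.04 ± 0.41 (SE), and Pdgfrb at 677, 626, 758 and 610 CPM, a log2 fold change of 0.02 ± 0.41 (SE). In both the genotypes overlapped, and as genes of the rule they carry no test. Wnt9b, a signal from the collecting duct to its surroundings, had 0 UMIs in these nuclei. Tfap2b, the paralogue of Tfap2a, had 0, 1, 0 and 4 UMIs. Alcam, an adhesion gene on chromosome 16 from 52248996 to 52453081, had 20, 17, 2 and 3 UMIs in 24 nuclei, a log2 fold change of -1.90 (edgeR adjusted p = 0.738). Without the nuclei with podocyte markers Alcam had 12, 14, 2 and 3 UMIs (120, 143, 36.1 and 63.1 CPM), and the genotypes still did not overlap. It was found in 15.5% of interstitial and 13.7% of proximal tubule nuclei, which were deeper.

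By list, 0 genes passed except Podxl, and medians are given beside that of all genes, -0.05. Counts below and above are to be read beside those of all 6493 genes tested, 3486 below and 3007 above. The rule marker, fibroblast, collagen, matrix and myofibroblast lists, all with positive medians, hold genes of the nucleus with 219 marker UMIs, and their medians were not computed without it. Of 17 collagen genes tested, 8 lay below and 9 above a fold change of 0 on the log2 scale, with a median of 0.30. Of 25 genes of matrix proteins and proteoglycans, 9 lay below and 16 above, with a median of 0.38. Of 16 genes of matrix turnover, 6 lay below and 10 above (median 0.15), and of 9 fibroblast genes 1 below and 8 above (median 0.94), but 5 of these 9 are genes of the rule. So are 3 of the collagen genes, 1 of the matrix genes, 2 of the myofibroblast genes and 2 of the PDGF genes tested, so these counts and medians draw in part on the genes that chose the nuclei. The 6 rule markers had a median of 0.73. Of 8 genes of myofibroblast activation, 2 lay below and 6 above (median 0.53), Ctgf and Fn1 among them.

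Of 10 pericyte genes, 6 lay below and 4 above (median -0.22), of 6 smooth muscle genes 4 and 2 (median -0.04), and both mesangial and renin genes tested lay below (median -0.41). Of 8 medullary interstitial genes, 5 lay below and 3 above (median -0.22), and of 14 stromal transcription factors 8 and 6 (median -0.21). Signalling lists were mixed. PDGF ligands and receptors had 2 below and 2 above (median -0.05), the 2 above being the rule genes Pdgfra and Pdgfrb, the Hedgehog response 4 and 4 (median -0.13), Wnt receptors and response 11 and 6 (median -0.06), Wnt ligands and R-spondins 2 and 1 (median -0.45), and the TGF-beta pathway 10 and 7 (median -0.16). The erythropoietin and hypoxia list had 4 below and 2 above (median -0.26), the immediate early and stress list 7 and 2 (median -0.39), and of the list of AP-2 and duct targets only Alcam was tested.

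Lists of other cell types were read as a measure of their RNA in these nuclei. The proximal tubule list had 4 genes below and 7 above (median 0.07), the thick ascending limb list 2 and 1 (median -0.17), the distal and connecting tubule list 1 and 2 (median 0.91) and the endothelial list 1 and 1 (median -0.10). Slc12a3, the transporter of the distal tubule, had 1, 0, 34 and 1 UMIs, of which 33 lay in 1 nucleus of knockout mouse 1. Both principal cell genes tested lay below (median -4.36, or -2.25 with genes at 0 in a group set to their bound), as did all 5 podocyte genes (median -5.63, or -2.55 with bounds). The thin limb, immune, pelvis epithelium and glia lists had 1 gene tested each, at -0.77, -0.30, -0.98 and -0.63 on the log2 scale, and the intercalated list had 0 genes tested.

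The change with genotype was also compared with that in all other nuclei, in a fit over 8 sums with the mouse as a block. It differed for 1 gene of 6493 (0.0154%), Podxl, where the log2 fold change in interstitial nuclei minus that in all others was -5.04 (edgeR adjusted p = 0.0143). At an unadjusted p under 0.05 there were 318 genes (4.9%). Podxl stood at 55.0, 37.9, 43.6 and 38.7 CPM in the other nuclei. Without control mouse 1, and without control mouse 2, edgeR found 0 genes, without knockout mouse 1 it found 27 and without knockout mouse 2 it found 10. Without the 3 nuclei with podocyte markers it found 0.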

How the data were processed

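The authors deposited raw UMI counts of single-nucleus RNA-seq for every barcode of 4 libraries, which the submitters' processing notes credit to Cell Ranger 3.0.2 and the mm10 genome. From these counts, each library gave its 10000 deepest barcodes, and those with more than 500 but fewer than 4000 genes detected, and mitochondrial UMIs below 5%, were kept. Members and lists were chosen with earlier results of these data known. UMIs of members were summed per mouse, and genes with at least 10 UMIs were tested with edgeR 4.0.16 (TMM, quasi-likelihood test, Benjamini-Hochberg adjustment over all genes tested, R 4.3.3). DESeq2 1.42.0 was an alternative. The fits were tested on simulated data, and no result of those tests is used here. Named genes were those of the member rule with Tfap2a, Tfap2b, Wnt9b and Alcam, the 10 with the smallest p per direction where fewer passed, the 3 most abundant and those with an unadjusted p under 0.05 in each stromal list, and 5 leading genes per subcluster. Others, such as Aqp2, Nphs1, Bgn, Robo2 and those of the detection counts, were chosen after their values were seen. Doublets were called per mouse with scanpy 1.11.5 by simulating 2 doublets for each nucleus, with an assumed rate of 0.8% for every 1000 nuclei; 1532 nuclei were called, 12 of them interstitial, and they stayed in the main results. Subclusters used 2000 variable genes, 10 components, 20 neighbours and a resolution of 0.5. Gene positions came from RefSeq.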

Additional observations from a re-analysis of the deposited data

Results flagged for a closer look

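The change of Podxl with genotype differed between interstitial nuclei and all other nuclei by a test of the difference itself, with a log2 difference of -5.04 (edgeR adjusted p = 0.0143). Podxl had 50, 23, 1 and 0 UMIs (control mouse 1, control mouse 2, knockout mouse 1, knockout mouse 2), and without 3 interstitial nuclei of the control mice that held at least 2 podocyte markers it had 3, 3, 1 and 0. Without those nuclei 0 genes differed in this edgeR test.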

How the results depend on the processing

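The lower share of interstitial nuclei in the knockout mice kept its direction among all kept nuclei and among those outside the proximal tubule. Log2 ratios ran from -1.44 (mitochondrial UMIs under 1%, where mice overlapped) to -0.92 (nuclei outside the proximal tubule as the denominator). With each mouse left out in turn they ran from -1.21 to -1.01, and thinned to 1000 UMIs the ratio was -1.16. This did not hold for every denominator. Per 100 nuclei with at least 2 Slc14a2 UMIs both knockout mice (34.1 and 31.4) lay between the control mice (37.7 and 27.7). Per 100 nuclei with at least 3 Aqp2 UMIs they also did (9.15 and 11.1, against 16.8 and 8.95). Genes lower and higher in the knockout mice numbered 1 and 0 in edgeR, 13 and 10 without the filter, 6 and 8 with at least 3 markers, 3 and 2 with mitochondrial UMIs under 1%, and 0 lower with filterByExpr, with 0 UMIs of Flt1, Lrp2 and Slc12a1, and without called doublets. Unadjusted, edgeR found 54, 133 and 158 lower there, and DESeq2 called 1 lower. Alternatives chosen after seeing the data gave 0 lower without the 3 nuclei with podocyte markers, and 8 lower and 3 higher without the nucleus with the most marker UMIs. Leaving out each mouse in turn gave 5 to 13 lower and 5 to 18 higher. The lone mouse left in a group was then assumed to vary like those of the other. Genes whose change differed from that in other nuclei numbered 1 in edgeR, 0 without a mouse term, 2 without called doublets, 0 without the nuclei with podocyte markers, 0 without the nucleus with the most marker UMIs, and 0 to 27 with each mouse left out. The cause was not tested. With 2 mice against 2, depths of 47511 to 104943 UMIs per sum limit what can be seen.

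With the replicate number as a block (replicate block), edgeR called 19 lower and 11 higher and the share gave -1.11. Col4a3, Nupr1, Ranbp3l and Npy1r (edgeR adjusted p = 0.0332 for the last) then passed. So did Lum, Pi16 and Clec3b, whose UMIs in knockout mouse 2 lay in 1 nucleus. Deviations of same-numbered mice from their group means had a correlation of 0.29 over 437 genes, and the labels do not state that numbers pair mice.

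For the 20 genes with the smallest p, 262 values came from alternatives: 169 kept direction and side of the threshold, 87 newly passed, 2 had the opposite sign, and 4 of Podxl no longer passed, at -5.21 with DESeq2, -5.01 with filterByExpr, -7.15 with 0 UMIs of Flt1, Lrp2 and Slc12a1, and -7.77 without called doublets. Podxl had a value in 13 alternatives, and none with at least 3 markers or without the podocyte-marker nuclei, so it was not called there. For 74 other named genes, 1072 values gave 930, 21 newly passed and 121 of opposite sign. Opposite signs are given here as log2 fold changes. With 0 UMIs of Flt1, Lrp2 and Slc12a1 it was Acadm 0.024, Acy3 0.47, Cald1 0.29, Cd74 0.99, Cdh11 0.20, Col8a1 0.38, Dkk2 0.13 and Ebf1 0.19. Further values there were Ier3 -0.42, Lrp6 -0.11, Mylk 0.0079, Prkg1 0.14, Ror1 -0.019, Tagln 0.093 and Tgfbr3 -0.26. With mitochondrial UMIs under 1% it was Acadm 0.48, Acy3 0.47, Adamtsl1 0.13, Cald1 0.44, Cdh11 0.34, Col4a2 0.12, Csmd1 0.054 and Ebf1 0.59. Further values there were Eng 0.75, Epas1 0.69, Gas1 0.15, Gpc6 0.18, Igfbp3 -0.12, Kcnd2 0.017, Lrp2 -0.18 and Lrp6 -0.40. Further values there were Mylk 0.93, Prkg1 0.17, Tagln 1.21, Tgfbr3 -0.37 and Zeb2 0.26. With at least 3 markers it was Acy3 0.0055, Adamts5 -0.068, Angpt1 -0.054, Gas1 0.072, Kcnd2 0.0014, Lrp6 -0.014, Magi2 0.24 and Pdgfd 0.32. Further values there were Pdgfrb -0.20, Ptch1 0.20, Tagln 0.077 and Tgfbr3 -0.31. With DESeq2 it was Cald1 7.46e-05. Without TMM it was Cald1 0.036 and Tagln 0.0013. Without called doublets it was Cald1 0.066, Ier3 -0.093, Pdgfra -0.18, Tagln 0.064 and Tgfbr3 -0.16. Without the nucleus with the most marker UMIs it was Cald1 0.044, Col1a1 -0.26, Col1a2 -0.088, Col3a1 -0.40, Dcn -0.089, Serpine2 0.013 and Tagln 0.016. Without the filter it was Ier3 -0.11, Kap -0.060, Pdgfra -0.080, Pdgfrb -0.097 and Tgfbr3 -0.052. With the replicate block it was Ier3 -0.0014 and Kap -0.41. Without the podocyte-marker nuclei it was Ier3 -0.025, Magi2 1.08, Pdgfra -0.020 and Pdgfrb -0.0060. With each mouse left out in turn it ran over Acadm -1.28 to 0.23, Acy3 -1.10 to 0.46, Adamts5 -0.0096 to 0.79, Adamtsl1 -2.74 to 0.11, Angpt1 -0.15 to 0.48, Cald1 -0.37 to 0.30, Cd74 -0.87 to 0.29 and Cdh11 -0.41 to 0.15. It also ran over Col1a1 -0.22 to 2.14, Col1a2 -0.16 to 1.40, Col3a1 -0.11 to 1.24, Col8a1 -2.27 to 1.70, Csmd1 -1.003 to 0.35, Dcn -0.22 to 2.29 and Dkk2 -0.46 to 0.063. It also ran over Dusp1 -0.93 to 0.068, Eng -0.35 to 0.060, Gas1 -0.85 to 0.069, Ggt1 -0.38 to 0.99, Ier3 -0.60 to 0.49, Igfbp3 -0.12 to 1.26, Kap -1.74 to 0.85 and Kcnd2 -7.45 to 0.48. It also ran over Lrp2 -0.46 to 0.91, Lrriq1 -2.38 to 0.11, Mylk -0.25 to 0.12, Pdgfd -0.40 to 0.31, Pdgfra -0.062 to 0.17, Pdgfrb -0.14 to 0.19, Prkg1 -0.27 to 0.024 and Rspo3 -1.23 to 0.062. It also ran over Serpine2 -0.32 to 0.13, Tagln -0.67 to 0.39, Tgfbr3 -0.29 to 0.40, Timp3 -0.085 to 0.37 and Wnt5a -0.045 to 1.36.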
